A study of Drosophila melanogaster with 12 samples.

Results

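The genes described here carry an annotation number as their symbol and were higher in the G2 fraction than in the G1 fraction in both wing discs and S2 cells. They were selected on measured values. A gene had to carry a single platform symbol made of CG and a number, a mean log2 intensity of at least 6 in wing disc G2 and in S2 G2, and a mean G2 minus mean G1 of at least 0.4 in each cell type. Where a gene had several probe sets, the brightest over the 12 arrays stood for it. Of 5208 CG-numbered genes, 1518 reached the level and 30 of these met both changes, out of 11980 genes in all. A gene that the rule leaves out by name is not reported here.

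The arrays measured RNA from cells sorted by DNA content, in which the 2C gate is called G1 and the 4C gate G2. The 4C gate does not separate G2 from mitosis. Wing discs, the larval epithelia from which the wings of the adult form, came from OreR animals reared at 25 °C and dissected as wandering larvae of instar 3. S2 cells, a line derived from fly embryos, had been passaged fewer than 30 times. Neither source carried a treatment or a transgene in the labels. Each fraction of each cell type had 3 arrays, numbered 2, 3 and 4 for the disc and 4, 5 and 6 for S2.

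In the fly genome a CG number is given to a gene model found by annotation, and a gene keeps it as its only symbol until a name is assigned. Transcripts that accumulate between DNA replication and division include those of cyclin B and of proteins of the spindle and kinetochore, while transcripts for replication proteins are typical of the time around S phase. In the RefSeq table of assembly Release 6, all 30 genes were found, 30 were protein-coding and 30 still had the CG number as their symbol. Its synonyms are mostly clone or older annotation numbers. CG2224 is also listed as Amsh, and the human protein of that name is a deubiquitinase that acts at endosomes. CG13088 is also listed as FBXO15, and F-box proteins of that kind in mouse and human are substrate receptors of ubiquitin ligases. CG31751 and CG4617 have the short synonyms ct and CC28, from which no role was taken. No role is given here for the genes other than CG2224 and CG13088.

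Between 40.4% and 42.0% of probe sets reached a log2 intensity of 5 on an array, and array medians were 4.18 to 4.37. Of 14 wing disc epithelium markers, 14 had a mean of at least 5 in both disc fractions and 4 in both S2 fractions. Of these markers nub, a gene of the wing pouch, was at 9.95 in disc G1 and 2.49 in S2 G1. The other order was seen in pnr and ap, at 10.98 and 10.28 in S2 G2 against 8.73 and 9.93 in disc G2. It was also seen in ptc, at 5.67 in S2 G2 against 5.55 in disc G2. Of 14 haemocyte genes, 10 reached 5 in disc G1 and 10 in S2 G1. Among them srp and Hml were at 10.43 and 11.14 in S2 G1, against 2.87 and 5.85 in disc G1, while Ppn was at 4.90 in S2 G1 against 10.88 in disc G1. Markers of other cells moved between the disc fractions. The summed intensity of 5 adult muscle precursor genes, all with a mean of at least 5 in the disc, was 7885 to 10367 in the G1 arrays and 2235 to 4915 in the G2 arrays. That of 14 haemocyte genes was 8528 to 10458 in G1 and 4367 to 4676 in G2. Of the 14, 10 had a mean of 5 or more in each disc fraction, and srp was under 5 in both. SPARC, Col4a1 and vkg changed by -1.59, -1.62 and -1.62 between the disc fractions, while the median of the 14 was -0.42. Hml changed by -0.49, Ppn and crq by -0.14 each, ush by -0.06 and NimC1 by 0.28. The 14 epithelium genes summed to 5527 to 6440 in G1 and 7397 to 7699 in G2, and 7 tracheal genes to 4283 to 4673 and 5491 to 7102, with 5 of 7 at a mean of 5 or more and btl, the tracheal FGF receptor, under 5 in both. Of 5 fat body genes 1 reached 5 in the disc, and the 5 summed to 396 to 466 in G1 and 274 to 358 in G2. Of 5 genes of neurons and glia, 3 reached 5 in disc G1 and 4 in disc G2, and the 5 summed to 1441 to 1641 and 1057 to 1217. The genes of this list went both ways. From disc G1 to disc G2, nrv2 went from 10.47 to 9.92, elav from 6.01 to 6.49 and moody from 4.36 to 5.60. Little change was seen in nSyb (5.06 and 5.01), and repo, the glial marker, was at 3.27 in disc G1. The part of this shift in the results for the disc was not tested, and in such samples fewer cells of a type and less RNA per cell cannot be told apart. In S2 the muscle precursor genes summed to 1169 to 1342 in G1 and 904 to 1471 in G2. Of these, zfh1 alone had a mean of 5 or more (10.23 and 10.04), and twi, htl, Act87E and Him were under 5. The haemocyte genes summed to 20595 to 25505 in S2 G1 and 21464 to 23535 in S2 G2. The epithelium genes summed to 2934 to 3862 and 3396 to 3710 there, with pnr and ap the highest of them. The tracheal genes summed to 201 to 320 and 300 to 407, with 2 of 7 at a mean of 5 or more in each fraction. Sums of other lists were higher in S2 G2 without overlap. The fat body genes summed to 2147 to 3124 in S2 G1 and 3206 to 3730 in S2 G2. Of these, FASN1 alone was at 5 or more, and apolpp, Lsp2, Fbp1 and Fbp2 were under 5. The neuron and glia genes summed to 932 to 1325 and 1705 to 1943. In this list 2 of 5 were at 5 or more, moody (9.81 and 10.52) and nrv2 (7.53 and 8.04), with repo, elav and nSyb under 5. The part of this shift in the results for S2 was not tested either.

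Over the 30 genes, the mean G2 minus G1 ran from 0.40 to 0.88 in the disc, with a median of 0.51, and from 0.40 to 1.29 in S2, with a median of 0.57. On this log2 scale 1 is a 2-fold difference, which 0 genes reached in the disc and 3 reached in S2. The median over the 1518 genes at the level was 0.07 in each cell type. The change was larger in S2 for 21 genes and larger in the disc for 9, and for 15 the changes lay within 0.1 of each other. These values chose the genes and are given as a description, with no test. Of the 1518 genes at the level, 5.60% changed by at least 0.4 in the disc, 9.29% did so in S2 and 1.98% did so in both.

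**Figure D1:**
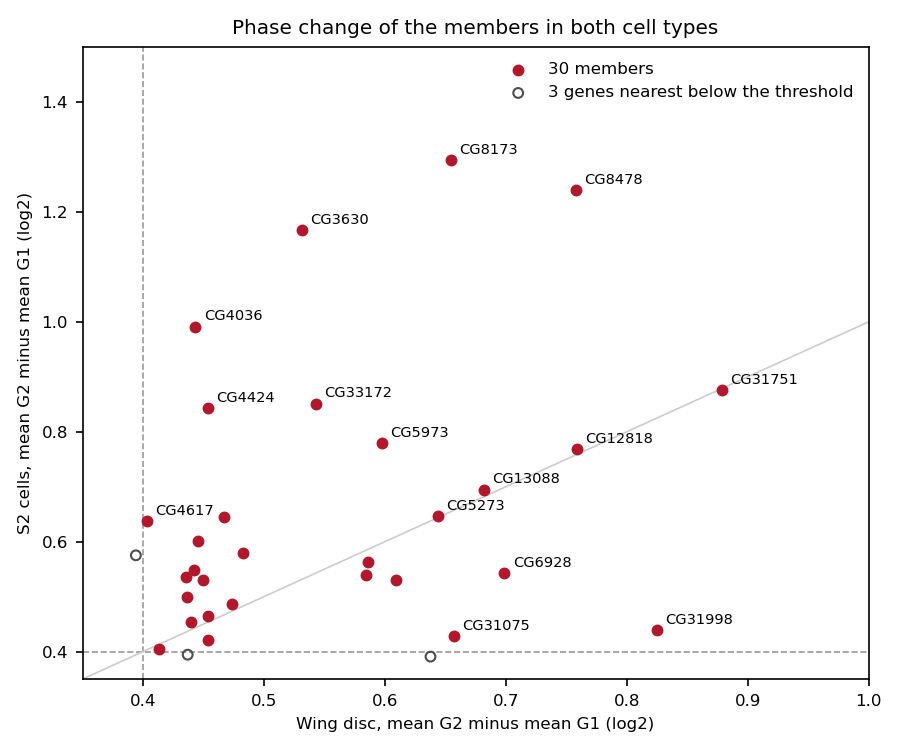
Mean G2 minus mean G1 (log2) in wing disc on the horizontal axis and in S2 cells on the vertical axis, one filled point for each of the 30 genes and one open point for each of the 3 CG-numbered genes nearest below the threshold. Dashed lines mark the threshold of 0.4 and the grey line marks equal changes. CG31751 and CG12818 lie on the line at the right, and CG8173, CG8478 and CG3630 lie above 1 in S2.

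The genes with the largest change in whichever cell type changed less were CG31751 and CG12818. CG31751 was at 5.50, 6.11 and 5.68 in disc G1 arrays 2, 3 and 4 and at 6.61, 6.82 and 6.49 in the G2 arrays, and in S2 it was at 8.12, 8.36 and 7.96 in G1 arrays 4, 5 and 6 and at 9.06, 8.90 and 9.10 in G2. Every G2 array lay above every G1 array in both cell types, and the mean change was 0.88 in each, a fold of 1.84. CG12818 was at 5.25, 5.83 and 5.72 in disc G1, 6.29, 6.46 and 6.33 in disc G2, 7.85, 7.94 and 8.17 in S2 G1 and 8.74, 8.65 and 8.88 in S2 G2. Its fractions did not overlap either, and its changes of 0.76 and 0.77 were also nearly equal. Both genes had a disc G1 mean under 6 (5.76 and 5.60), so they stood closer to background in that group than in S2.

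Nearly equal changes were also measured for CG13088, CG5273 and CG9886. CG13088, the gene with the F-box synonym, was at 6.10, 6.72 and 6.36 in disc G1 and 6.75, 7.36 and 7.11 in disc G2, and at 5.70, 5.79 and 6.14 in S2 G1 and 6.84, 6.25 and 6.62 in S2 G2. The fractions came close without overlapping in both cell types, at changes of 0.68 and 0.69. CG5273 was at 6.29, 6.36 and 6.40 in disc G1, 6.95, 7.06 and 6.96 in disc G2, and at 6.21 ± 0.16 in S2 G1 and 6.86 ± 0.13 in S2 G2 (SD, n = 3). Its changes were 0.64 and 0.65, and its disc arrays were among the tightest of the set, with an SD of 0.06 in each fraction (n = 3). CG9886 changed by 0.59 in the disc (6.40 ± 0.04 to 6.99 ± 0.13, SD, n = 3) and by 0.56 in S2 (6.40 ± 0.25 to 6.96 ± 0.17). It is the only one of the 30 with another probe set of its own, and that probe set was under 4 in every group (3.40 and 3.68 in the disc, 3.13 and 3.38 in S2), below the level of 5 used as a filter, with changes of 0.28 and 0.26.

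**Figure D2:**
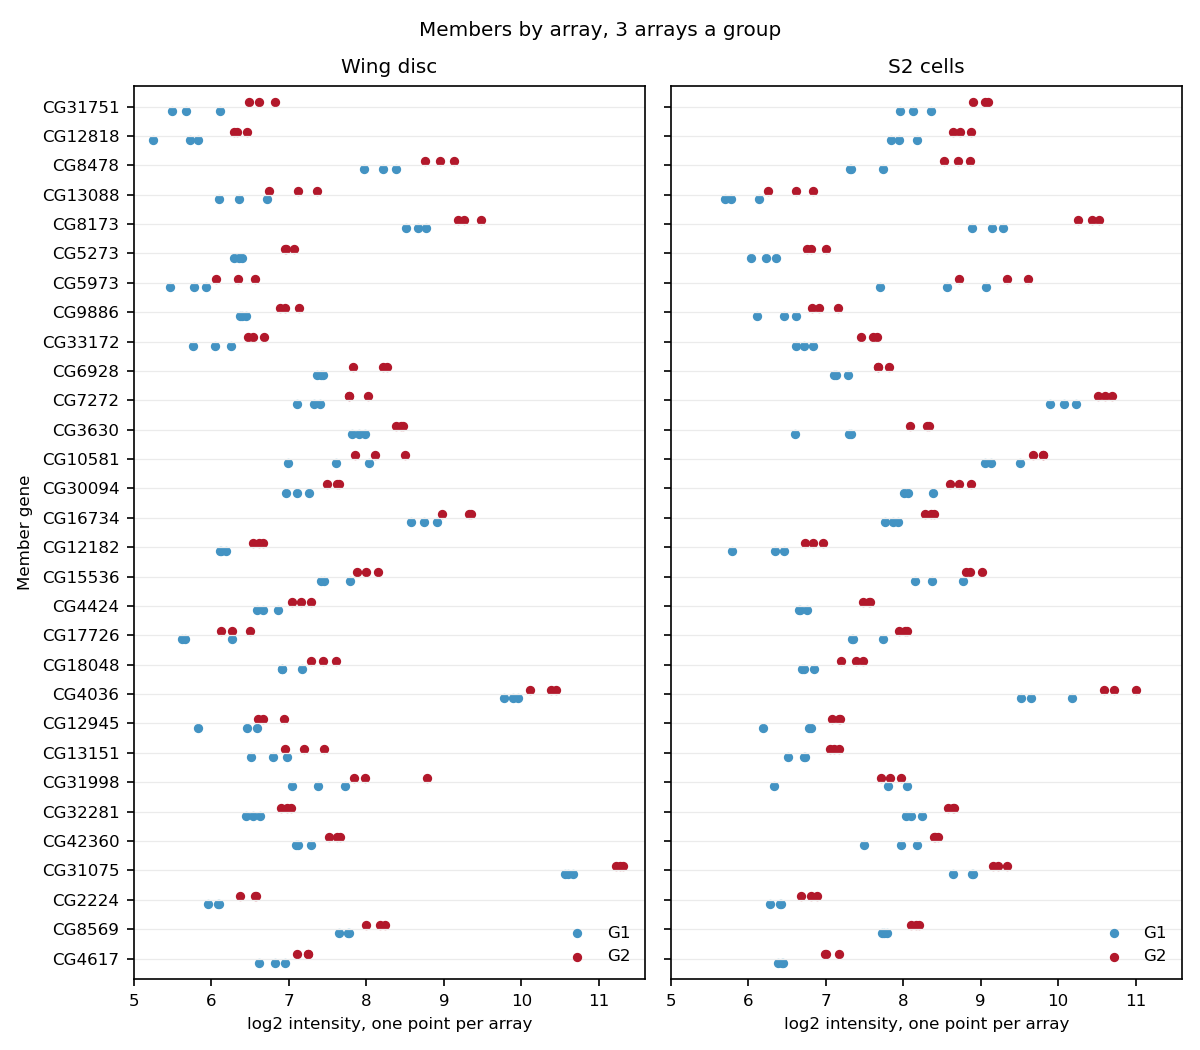
log2 intensity of the 30 genes, one row each, with G1 arrays in blue and G2 arrays in red, wing disc on the left and S2 cells on the right, 3 points a group. Red points lie to the right of blue points in nearly every row. The fractions overlap for CG10581, CG17726 and CG13151 in the disc and for CG5973 and CG31998 in S2.

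In a group of 4 genes the S2 change exceeded the disc change the most. CG8173 was at 8.52, 8.77 and 8.66 in disc G1 and 9.18, 9.48 and 9.26 in disc G2, and at 8.90, 9.29 and 9.15 in S2 G1 and 10.26, 10.43 and 10.53 in S2 G2. This is a change of 0.65 in the disc (1.57-fold) and of 1.29 in S2 (2.45-fold), with no overlap in either. CG3630 changed by 0.53 in the disc, where its arrays were at 7.90, 7.99 and 7.82 in G1 and 8.39, 8.47 and 8.44 in G2. In S2 it went from 6.61, 7.33 and 7.30 to 8.09, 8.31 and 8.34, a change of 1.17 (2.25-fold), and the low array 4 in G1 widened its G1 spread to an SD of 0.41. CG4036 changed by 0.44 in the disc (9.87 ± 0.09 to 10.32 ± 0.18) and by 0.99 in S2 (9.78 ± 0.35 to 10.77 ± 0.21). CG8478 changed by 0.76 in the disc, from 7.97, 8.38 and 8.22 to 8.76, 9.13 and 8.95, and by 1.24 in S2 (2.36-fold), from 7.32, 7.74 and 7.33 to 8.53, 8.71 and 8.87. It therefore had both a large S2 change and the third largest smaller-of-both change. CG33172 and CG4424 followed the same order at 0.54 and 0.85, and at 0.45 and 0.84.

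The opposite order was seen most in CG31998, CG31075, CG6928 and CG10581. CG31075 was the clearest, at 10.57, 10.61 and 10.67 in disc G1 and 11.23, 11.27 and 11.32 in disc G2, a change of 0.66. In S2 it was at 8.91, 8.64 and 8.90 in G1 and 9.23, 9.16 and 9.34 in G2, a change of 0.43, and the fractions did not overlap in either cell type. CG6928 changed by 0.70 and 0.54, from 7.45, 7.37 and 7.41 to 8.27, 7.83 and 8.22 in the disc and from 7.18 ± 0.10 to 7.72 ± 0.08 in S2. CG10581 changed by 0.61 and 0.53, but its disc arrays overlapped, at 7.61, 6.99 and 8.04 in G1 and 8.11, 7.86 and 8.50 in G2. Each disc G2 array lay above the G1 array of its own number, by 0.46 to 0.86.

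The S2 change of CG31998 rested on 1 array. In the disc it was at 7.73, 7.04 and 7.37 in G1 and 8.79, 7.98 and 7.84 in G2, a change of 0.82, or 0.53 without G2 array 2. In S2 it was at 7.81, 8.06 and 6.33 in G1 and 7.97, 7.83 and 7.71 in G2, a change of 0.44. Without S2 G1 array 6 that change was -0.09, and without S2 G1 array 5 it was 0.77. It was the only gene of the 30 whose change turned below 0 when an array was left out. Changes moved by more than 1.5 times in 4 other genes. They were CG10581 (0.33 in the disc without G1 array 3), CG12945 (0.21 in the disc without G1 array 3 and 0.35 in S2 without G1 array 6), CG5973 (0.40 in S2 without G1 array 4) and CG42360 (0.34 in S2 without G1 array 6).

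G1 and G2 arrays of the same number deviated together from their group means, so the change was also taken within each number. In 179 of 180 such pairs (30 genes, 6 pairs each) the G2 array was higher, the exception being CG31998 in S2 pair 5 (-0.22). For 29 of the 30 genes G2 was higher in 6 of 6 pairs, against 22.7% of the 1518 genes at the level. Every disc G2 array lay above every disc G1 array for 27 genes (24.6% of the 1518), every S2 G2 array above every S2 G1 array for 28 (22.7%), and both held for 25. The rule used these same contrasts, so nothing is read from those shares.

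**Figure D3:**
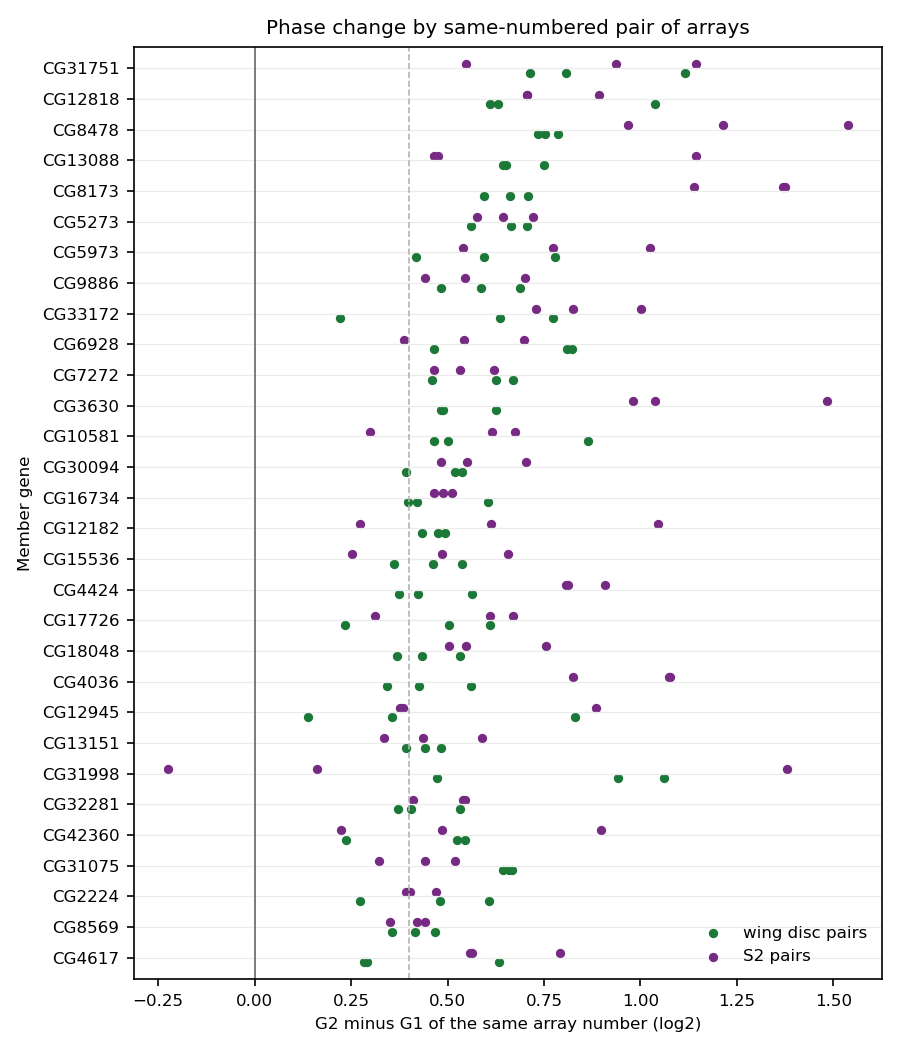
G2 minus G1 (log2) within each pair of arrays of the same number, 3 wing disc pairs in green and 3 S2 pairs in purple for each of the 30 genes; the solid line is at 0 and the dashed line at 0.4. The pair values of CG31998 in S2 run from -0.22 to 1.38, while those of CG16734 in S2 run from 0.46 to 0.51.

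The threshold cut through a continuous run of genes. The 3 genes just inside were CG4617 (0.40 in the disc and 0.64 in S2), CG8569 (0.41 and 0.40) and CG2224 (0.45 and 0.42), and the 3 just outside were CG8060 (0.44 and 0.39), CG6650 (0.39 and 0.58) and CG30010 (0.64 and 0.39). CG8569 is an example of a small change that exceeded the spread of its replicates. It was at 7.73 ± 0.07 in disc G1 and 8.14 ± 0.13 in disc G2 (SD, n = 3). Its S2 arrays were at 7.79, 7.75 and 7.72 in G1 and 8.21, 8.10 and 8.17 in G2. CG2224, the Amsh gene, was at 5.96, 6.10 and 6.09 in disc G1, 6.57, 6.58 and 6.36 in disc G2, 6.42, 6.41 and 6.29 in S2 G1 and 6.89, 6.81 and 6.69 in S2 G2. Neither gene had overlapping fractions. When 1 array was left out, 14 of the 30 genes met the rule every time, and those lost most often were CG8569 (met in 7 of 12), then CG12945, CG13151, CG15536, CG17726 and CG4617 (9 of 12 each). The genes that met it all 12 times included CG31751, CG12818, CG8478, CG13088, CG8173, CG5273, CG5973 and CG9886.

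The level in the disc against the level in S2 was not used in the rule, except that both G2 means had to be at least 6. The average of disc G1 and disc G2 was set against the average of S2 G1 and S2 G2 with limma, over all 12 arrays. By this test 15 of the 30 genes were lower in the disc than in S2, 7 were higher and 8 did not pass, at an adjusted p under 0.05. Over all 8580 probe sets tested, 42.7% were lower in the disc and 41.0% were higher, and over the 1518 CG-numbered genes at the level 49.3% were lower and 35.7% were higher. Of the 30 genes, 50.0% were lower, near that background, and 23.3% were higher, below it, with no test of the difference. Their median difference was -0.18, against -0.17 over the 1518 genes. Whether replicate arrays hold RNA of separate dissections or cultures is not in the labels, so these p-values reflect only the spread between the samples at hand, which may be technical.

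Of the 15 genes lower in the disc, 8 were lower by at least 2-fold. CG5973 had a disc level of 6.02 and an S2 level of 8.84, a difference of -2.81 ± 0.22 (SE of the fit, n = 3 arrays a group, limma adjusted p = 1.2e-07), or 7.03-fold higher in S2. Its single values were 5.78, 5.92 and 5.47 in disc G1, 6.56, 6.34 and 6.06 in disc G2, 7.70, 8.57 and 9.08 in S2 G1 and 8.72, 9.34 and 9.62 in S2 G2. No disc array reached the lowest S2 array, but the S2 arrays were widely spread, and S2 G1 array 6 lay above S2 G2 array 4. CG7272 differed by nearly as much with much less spread, by -2.77 ± 0.08 (limma adjusted p = 9.8e-12), with 7.32, 7.40 and 7.11 in disc G1, 7.78, 8.02 and 7.78 in disc G2, 9.90, 10.08 and 10.23 in S2 G1 and 10.52, 10.61 and 10.69 in S2 G2. Its phase changes of 0.58 and 0.54 were thus measured at levels 6.82-fold apart. CG12818 and CG31751, the pair with the largest shared change, came next at -2.39 ± 0.10 (limma adjusted p = 3.5e-10) and -2.38 ± 0.11 (limma adjusted p = 8.0e-10), each over 5 times as high in S2. CG17726 (-1.67), CG10581 (-1.65), CG32281 (-1.62) and CG30094 (-1.10) made up the rest of the 8. Smaller differences that passed were those of CG15536 (-0.88), CG33172 (-0.86), CG8173 (-0.78), CG42360 (-0.77), CG12945 (-0.36), CG2224 (-0.31 ± 0.06) and CG4424 (-0.18). CG12945 did not pass with replicate number as a random block (limma adjusted p = 0.068), the only call of the 22 that the block ended. It also did not pass when any 1 of 7 arrays was left out, namely disc G1 array 3, disc G2 arrays 3 and 4, S2 G1 arrays 4 and 5 and S2 G2 arrays 4 and 5 (limma adjusted p from 0.058 to 0.081). CG4424 did not pass without disc G1 array 3 or disc G2 array 2 (limma adjusted p = 0.054 for each), and on G1 arrays alone its difference was 0.012.

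Higher levels in the disc were smaller, apart from CG31075. Its disc level was 10.94 and its S2 level 9.03, a difference of 1.92 ± 0.06 (3.77-fold, limma adjusted p = 3.3e-11), and every disc array lay above every S2 array. CG16734 differed by 0.88 ± 0.08 (1.84-fold, limma adjusted p = 6.4e-07), with 8.58, 8.91 and 8.74 in disc G1, 8.97, 9.33 and 9.35 in disc G2, 7.77, 7.94 and 7.87 in S2 G1 and 8.28, 8.40 and 8.36 in S2 G2. The phase changes of this gene were nearly equal in both cell types, 0.47 and 0.49. CG13088 (0.51 ± 0.15), CG3630 (0.50 ± 0.12), CG8478 (0.49 ± 0.11), CG6928 (0.30 ± 0.08) and CG4617 (0.26 ± 0.07) were also higher in the disc. CG6928 did not pass on G1 arrays alone (0.22, limma adjusted p = 0.086), and CG4617 did not pass after subtraction of array medians (0.15, limma adjusted p = 0.060).

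**Figure D4:**
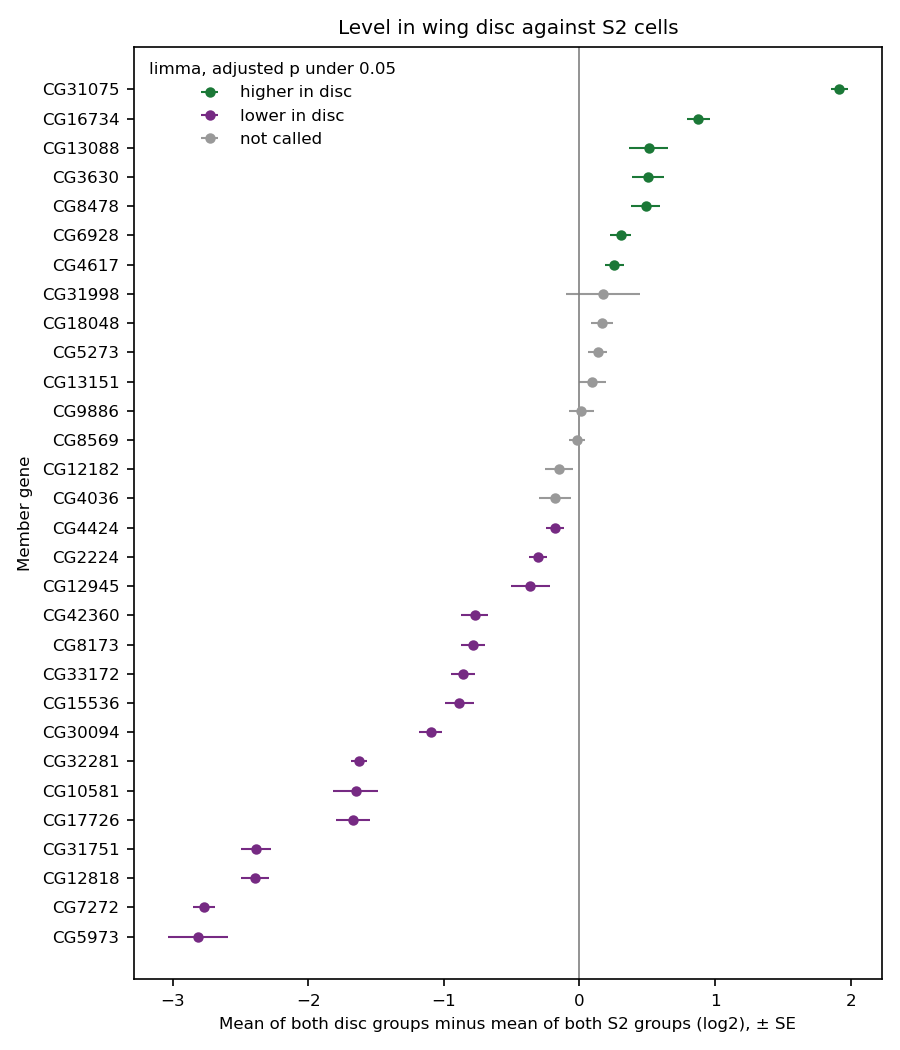
Disc level minus S2 level (log2), each the average of its G1 and G2 means, for the 30 genes, with the SE of the limma fit as bars; green marks higher in the disc, purple lower in the disc and grey not called at an adjusted p under 0.05. The points run from -2.81 (CG5973) to 1.92 (CG31075), and the widest bar is that of CG31998.

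The 8 genes that did not pass were CG31998, CG18048, CG5273, CG13151, CG9886, CG8569, CG12182 and CG4036, with differences from -0.18 to 0.17. CG8569 and CG9886 were nearest to 0, at -0.02 ± 0.06 and 0.01 ± 0.09. CG31998 had the widest SE, 0.27, at a difference of 0.17. Where a gene did not pass, similar levels are not shown, and 4 of the 8 passed under another setting. CG12182 passed after subtraction of array medians, with array weights and without S2 G1 array 6 (-0.25, limma adjusted p = 0.0022 in the last), and CG4036 passed after subtraction of array medians (-0.29, limma adjusted p = 0.041). CG5273 passed after cyclic loess and without S2 G1 array 4 or S2 G2 array 4 (0.17 each, limma adjusted p from 0.039 to 0.044). CG18048 passed after cyclic loess and without disc G2 array 2 or S2 G2 array 6 (0.20 to 0.22, limma adjusted p from 0.019 to 0.049). Median phase changes were 0.48 in the disc and 0.55 in S2 for the 15 genes lower in the disc, and 0.66 and 0.64 for the 7 higher in the disc.

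All 30 genes passed the filter on low values (3 or more arrays at a log2 intensity of 5 or above). The rule's mean of at least 6 in both G2 groups made this nearly certain beforehand. Single values ran from 5.25 (CG12818, disc G1) to 11.32 (CG31075, disc G2). Levels of different probe sets are not comparable, so these values show only distance from background. The genes with the highest means over 12 arrays were CG4036, CG31075, CG8173 and CG7272, and those with the lowest were CG2224, CG12182, CG13088 and CG5273. The disc G1 mean was under 6 for 4 genes and the S2 G1 mean for 1. Replicates of these genes spread somewhat more than those of the 1518 genes at the level, with a median SD of 0.15 against 0.10 in disc G1 and of 0.20 against 0.16 in S2 G1. In the G2 groups the gap was smaller, at 0.14 against 0.11 in the disc and 0.11 against 0.10 in S2.

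The same values were asked of the genes with other symbols. Of 3517 such genes at the level, 57 were higher in both G2 fractions by at least 0.4, which is 1.62%. Their median changes were 0.51 in the disc and 0.86 in S2, and 47 of the 57 changed more in S2. A list of mitosis genes, drawn up with earlier results of these data known, had 53 genes at the level. Of these, 16 were higher by at least 0.4 in both, which is 30.2%, while 17 were so in the disc and 36 in S2. The median changes of the list were 0.22 in the disc and 0.63 in S2. Klp67A, a mitotic kinesin, changed by 1.17 in the disc and 1.76 in S2, cmet, a kinetochore kinesin, by 0.65 and 1.23, and Cep135, a centriole protein, by 0.66 and 1.26. Other genes of the list were lower in disc G2. Among them mei-38 changed by -1.21 in the disc and -0.08 in S2, Plp by -0.52 and 0.66, and borr by -0.45 and 0.34. A list of replication genes, also drawn up with earlier results known, had 28 genes at the level. Of these, 0 were higher by at least 0.4 in both, near the 1.62% over the 3517 genes. In both cell types 15 of the 28 were lower by at least 0.4. No share over all genes was taken for this direction, so the 15 has no background beside it. The medians of the list were -1.41 in the disc and -0.42 in S2. In S2 alone 2 were higher by at least 0.4, Cdc6 (0.82) and RfC3 (0.63), which changed by -1.01 and -0.37 in the disc. The largest disc change among the 30 CG-numbered genes, 0.88, was below the 1.17 of Klp67A.

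Position in the genome was looked up in the order of protein-coding genes in Release 6. No coordinates are printed, because the sources used here name no build for the platform. The 60 positions next to the 30 genes held 49 distinct genes with a probe set of their own, and 31 of these reached a mean of 6 in both G2 fractions. Of the 1518 CG-numbered genes at the level, 1.98% changed by at least 0.4 in both cell types, 5.60% in the disc and 9.29% in S2. Of the 3517 genes with other symbols, 1.62% did so in both. The counts of the 31 neighbours are too small to set apart from these shares, and nothing is read from them. None of the 31 changed by at least 0.4 in both cell types, 2 did so in the disc and 1 did so in S2. Their medians were 0.079 and 0.071. The neighbours of CG12818 and CG10581 that did so in the disc were Bruce, an inhibitor of apoptosis, and siz, an exchange factor for Arf GTPases, at 0.42 each, and the neighbour of CG4424 that did so in S2 was CG4854, at 0.53 (0.18 in the disc). CG13151 and CG8569 flank the same gene, CG8818, which CG13151 overlaps. CG13151 was at 6.76 ± 0.24 in disc G1 and 7.20 ± 0.25 in disc G2 (SD, n = 3), where the fractions overlapped, and at 6.52, 6.72 and 6.74 in S2 G1 and 7.11, 7.06 and 7.17 in S2 G2, where they did not, with changes of 0.44 and 0.45. CG8818 between them changed by 0.03 and 0.01, at a level of 10.96 to 10.99 in the disc and 10.12 in both S2 fractions. These neighbours were singled out after their values were seen.

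Of the 30 genes, 15 overlap another protein-coding gene in that table and 14 overlap no gene of any kind. Where genes overlap, RNA of the partner may reach the probes, and whether it did was not tested. Measured partners included tos, an exonuclease gene, beside CG31751, which changed by -1.34 in the disc and -0.08 in S2, and CG16985 beside CG12182, which changed by -0.73 and -0.39. Both moved against the member they overlap. CG16984, which also overlaps CG12182 and was under 5 in every group, changed by 0.17 and -0.34. CG7857 beside CG7272 (0.20 and 0.32) and GCC88 beside CG17726 (0.33 and 0.32) moved in the same direction as the gene they overlap, by less. The same held for mRpS18C (0.38 and 0.19) beside CG15536, which itself changed by 0.45 and 0.47. Small positive changes were seen in Polr3E beside CG10581 (0.10 and 0.28), MED6 beside CG8478 (0.04 and 0.18) and CG32278 beside CG32281 (0.18 and 0.07). The median over the 1518 genes at the level was 0.07 in each cell type, and MED6 lay below it in the disc. The number of RefSeq transcripts per gene was 1 to 7 with a median of 1, and CG5973 had the 7. Of the 30 probe sets, 5 carry a suffix that Affymetrix gives to probe sets matching more than 1 transcript, namely those of CG31751, CG8478, CG5273, CG5973 and CG6928.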

How the data were processed

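RNA (100 ng total per sample) was amplified and labelled with biotin, per the labels' protocols. The deposited intensity of each probe set is linear, and the authors used RMA in R 2.15.2, per the submitters' processing notes. These values were put on a log2 scale after removal of controls (18769 of 18952 probe sets left); the platform annotation gave 1 gene for 13646, several for 402 and none for 4721. The members, lists and tests were chosen with earlier results of these data known. Phase changes are differences of means with no test. The disc minus S2 level was tested two-sided with limma 3.58.1 (R 4.3.3; lmFit, eBayes, 1 coefficient per group, 8 residual and 3.52 prior degrees of freedom), with Benjamini-Hochberg adjustment over the 8580 probe sets that passed the filter on low values. The fit was run on simulated arrays with independent noise, so that check does not cover pairing between arrays. The rule for genes named with full values ranked shared change, difference between changes, level, disc minus S2 level and nearness to the threshold, and added genes with a name in the reference table. Neighbours, overlap partners, list examples and genes moved by leaving out an array were picked after their values were seen. Deviations of same-numbered G1 and G2 arrays correlated at 0.31 to 0.52 (6 pairs), those of different numbers at -0.50 to 0.01 (12 pairs). Deviations within a group sum to 0, so the lower values of different numbers follow in part from the higher ones. Arrays of the same number thus deviated together, although the labels state no pairing. The main fit had no block. With a replicate block the SE was 0.13 in place of 0.11 for CG31751 and 0.098 in place of 0.079 for CG6928. Alternatives were other scalings, thresholds and filters, a replicate block, array weights, G1 arrays alone and leaving out each array. The number of arrays limits the precision. Promoter and protein sequences were not analysed here.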

Additional observations from a re-analysis of the deposited data

How the results depend on the processing

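The number of genes that met the rule was 30 as reported, 19 after cyclic loess (all 19 among the 30), 13 at a change of at least 0.5, 77 at a change of at least 0.3 and 18 at a level of at least 7. It was 37 after subtraction of array medians, which kept all 30, and 37 with medians of the 3 arrays, which kept 25. Leaving out 1 array gave 25 to 36 genes, of which 23 to 30 were among the 30. Cyclic loess shifted the phase changes of all probe sets kept by a median of -0.035 in the disc and -0.061 in S2. Subtraction of array medians shifted them by 0.029 and 0.046. The thresholds set their own counts, and for the other settings the cause was not tested. The median disc change of the 30 was 0.51, or 0.54 after subtraction of array medians and 0.46 after cyclic loess, with 0.49 to 0.57 when 1 array was left out. The median S2 change was 0.57, or 0.62 and 0.50 under the same scalings, with 0.54 to 0.65 when 1 array was left out. Genes higher and lower in the disc than in S2 were 7 and 15, with 6 to 9 and 13 to 17 over the other settings, and 7 and 14 with replicate number as a random block (estimated correlation 0.388), which changed no call but that of CG12945. The calls of CG12945 and CG4424 were lost under 9 and 5 of 18 settings (highest adjusted p = 0.18 and 0.91). Subtraction of array medians moved the disc minus S2 difference of all probe sets by a median of -0.11. Among the 22 differences that passed, CG4424 changed sign (from -0.18 to 0.012, on G1 arrays alone). Among those that did not pass, CG9886 (0.01) became -0.10 after subtraction of array medians and ran from -0.058 to 0.065 when 1 array was left out. CG13151 (0.09) became -0.018 after that subtraction. CG31998 (0.17) became -0.11 with array weights and -0.020 on G1 arrays alone, and ran from -0.093 to 0.34. CG4036 (-0.18) became 0.092 on G1 arrays alone, and CG8569 (-0.022) became 0.068 after cyclic loess and ran from -0.047 to 0.013.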
